A study of Nitraria sibirica with 9 samples.

Results

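Leaves of Nitraria sibirica held at 400 mM NaCl were compared with leaves held at 100 mM NaCl, each level after 3 days and with 3 libraries, in 6 of the 9 libraries of the series. The samples were chosen by their labelled salt level alone. Nitraria sibirica is a shrub of saline soils, and its seedlings were grown in a greenhouse. NaCl was raised by 50 mM a day and every level reached its target together, per the labels' protocols, so that salt level and total time in salt cannot be told apart here. The other 3 libraries of the series, at 0 mM NaCl, entered the fits for their spread and are given as a further level beside the leading clusters. Expression was measured by RNA sequencing of total RNA over 126059 clusters of assembled transcripts. No gene name stands beside a cluster in the files, so that no pathway, cell type or leaf marker could be described, and only the 2 leading clusters in each direction are named.

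High salt reaches a leaf as an osmotic load, which limits water uptake, and as an ionic load, as Na+ and Cl- build up in the tissue. Salt-tolerant plants are known to move Na+ into the vacuole, to balance it with compatible solutes in the cytosol, and to adjust photosynthesis and antioxidant enzymes. The comparison of 400 with 100 mM bears on what differs between a high and a moderate load in plants that are both in salt, without the step from no salt to salt.

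Total counts ran from 21814761 to 23932857 in the 400 mM libraries, against 18070003 to 22494402 in the 100 mM libraries. A count was present in all 6 salt libraries for 48815 clusters and in none of them for 8124. The labels number the replicates without saying that each is another plant, so p-values here measure the spread among libraries, possibly a technical one. The correlation of log2(CPM + 0.5) across clusters, where CPM is a cluster's count scaled to library size with TMM factors, was 0.868 to 0.892 for the 3 pairs of libraries within 400 mM and 0.874 to 0.901 for the 3 pairs within 100 mM. Between the levels the 9 pairs ranged from 0.853 to 0.90, so the ranges overlapped. These pairs share libraries and depth, and clusters are not independent replicates. Within 100 mM, replicate 1 differed from replicates 2 and 3 in clusters detected. At full depth, which differs between libraries, it had counts in 89744 clusters, beside 79265 and 77735 in replicates 2 and 3. The 400 mM libraries had counts in 84797 to 89256 clusters and the 0 mM libraries in 89000 to 91227. Replicates 2 and 3 of 100 mM were thus the lowest of the series, and replicate 1 was near the other levels.

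No cluster passed the test between 400 and 100 mM. Of 56832 clusters tested with edgeR's quasi-likelihood test, 0 (0.0%) had a Benjamini-Hochberg adjusted p under 0.05, and the smallest adjusted p was 0.177. At an unadjusted p under 0.05, 3992 clusters (7.02%) stood apart, 2065 of them higher at 400 mM (3.63%) and 1927 lower (3.39%). Libraries of the levels did not overlap for 8170 clusters (14.4%), 4229 higher (7.44%) and 3941 lower (6.93%). DESeq2 on the same clusters called 900 of the 56340 to which it gave an adjusted p (1.6%), 450 higher (0.799%) and 450 lower (0.799%), limma-voom called 0 and edgeR with its newer adjusted deviances called 1. Scaling by library size alone left 0 calls, while the clusters at an unadjusted p under 0.05 divided into 2550 higher and 1505 lower. Without replicate 1 of 100 mM they divided into 2554 higher and 1669 lower, and without replicate 1 of 400 mM into 1752 higher and 1903 lower. The median fitted log2 fold change over all clusters tested was 0.033, and it was 0.093 when scaled by library size alone.

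**Figure D1:**
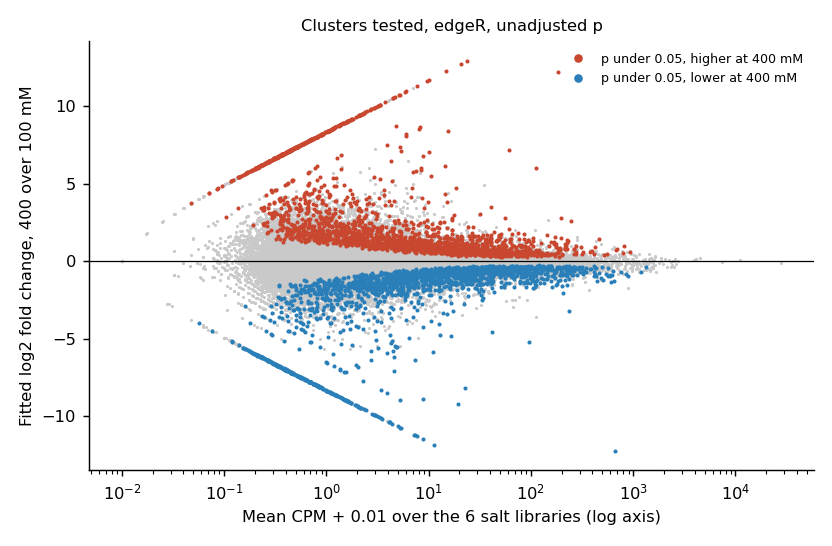
Fitted log2 fold change of 400 over 100 mM (vertical axis) against mean CPM + 0.01 over the 6 salt libraries (horizontal log axis), 1 point for each of the 56832 clusters tested. Coloured points are the 2065 higher and 1927 lower clusters at an unadjusted p under 0.05, and the outer diagonal arms are clusters with no count in any library of one level, whose fitted values depend on the fit.

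The 4 named clusters had at least 5 CPM in the higher level, no overlap between the levels and the smallest unadjusted p in their direction. Before naming, 1831 higher and 2234 lower clusters met the conditions on level and overlap. The 4 clusters fall into 2 kinds, a pair with almost no counts at one level and a pair with a graded difference of under 3-fold. None passed edgeR's adjusted test, and all 4 were called by DESeq2. These calls use the same counts as the choice of the 4 and are no independent support.

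Cluster-23439.52753 had 18.0, 14.7 and 13.0 CPM in the 400 mM libraries, against 0 counts in all 3 libraries at 100 mM. The levels were far apart with no overlap, and 0 mM leaves had 19.7, 9.89 and 8.60 CPM, near the 400 mM values. Its mean of 15.2 ± 2.56 CPM at 400 mM (SD, n = 3) was at least 284-fold higher than the 100 mM libraries, taken at a floor of 3 counts over the group, which covers counting error only. The adjusted p was 0.177 with edgeR's quasi-likelihood test, and over the alternatives it ran from 6.44e-13 with DESeq2 to 0.550 with limma-voom. On the FPKM scale, which divides by cluster length and library size, the cluster stood at 5.27, 4.26 and 3.48 at 400 mM and was listed at 0 in the 3 libraries at 100 mM.

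Cluster-23439.45316, a cluster of 1252 bases, had 29.0, 31.3 and 30.7 CPM at 400 mM, against 11.4, 10.7 and 12.6 CPM at 100 mM. Every 400 mM library lay far above every 100 mM library, and the spread within each level was small. The 0 mM libraries, at 18.5, 19.0 and 20.7 CPM, lay between both levels without touching either. The mean was 30.3 ± 1.22 CPM at 400 mM, against 11.6 ± 0.96 CPM in 100 mM leaves (SD over 3 libraries), 2.62-fold higher, with a log2 fold change of 1.39 (SE 0.15). The adjusted p was 0.190 with edgeR's quasi-likelihood test, and over the alternatives it ran from 3.31e-22 with DESeq2 to 0.484 with edgeR on the 6 salt libraries alone. FPKM values were 28.5, 30.8 and 27.8 at 400 mM, against 11.3, 9.66 and 11 at 100 mM. The limma difference on the log2(FPKM + 1) scale was 1.37, with a 95% interval of 1.02 to 1.72 and an adjusted p of 0.156.

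Cluster-23439.43787 was at 0.178, 0.279 and 0 CPM at 400 mM, from 4, 6 and 0 counts, against 28.8, 56.4 and 49.7 CPM at 100 mM. The levels did not overlap, and the 100 mM libraries themselves differed by about as much as their lowest value. Leaves at 0 mM held 18.8, 18.3 and 27.4 CPM, all below the 100 mM libraries and far above those at 400 mM. The mean of 0.152 ± 0.141 CPM at 400 mM, against 45.0 ± 14.4 CPM in 100 mM leaves (SD over 3 libraries), was 295-fold lower. The log2 fold change was -8.15 (SE 0.80), with an adjusted p of 0.177 with edgeR's quasi-likelihood test and, over the alternatives, from 2.36e-37 with DESeq2 to 0.550 with limma-voom. It was the single call of edgeR with the newer adjusted deviances, at an adjusted p of 0.000663. Its FPKM stood at 0.95, 1.33 and 0 at 400 mM, against 145, 264 and 222 at 100 mM. No length is listed for this cluster, so no limma interval is given.

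Cluster-23439.61078, of 2981 bases, had 21.0, 31.0 and 31.9 CPM at 400 mM, against 70.8, 87.2 and 87.9 CPM at 100 mM. The 100 mM libraries all stood above the 400 mM libraries, and 0 mM leaves, at 27.9, 31.5 and 27.7 CPM, lay within the range of the 400 mM libraries. The mean was 27.9 ± 6.05 CPM at 400 mM, against 82.0 ± 9.68 CPM in 100 mM leaves (SD over 3 libraries), 2.93-fold lower. The log2 fold change was -1.55 (SE 0.19), with an adjusted p of 0.269 with edgeR's quasi-likelihood test and, over the alternatives, from 1.92e-10 with DESeq2 to 0.484 with edgeR on the 6 salt libraries alone. Its FPKM stood at 7.62, 11.2 and 10.6 in the 400 mM libraries, against 25.7, 28.8 and 28.2 in the 100 mM libraries. The limma difference on the log2(FPKM + 1) scale was -1.42, with a 95% interval of -1.83 to -1.0 and an adjusted p of 0.161. RNA from bulk leaf cannot tell fewer cells of a type from less RNA per cell.

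**Figure D2:**
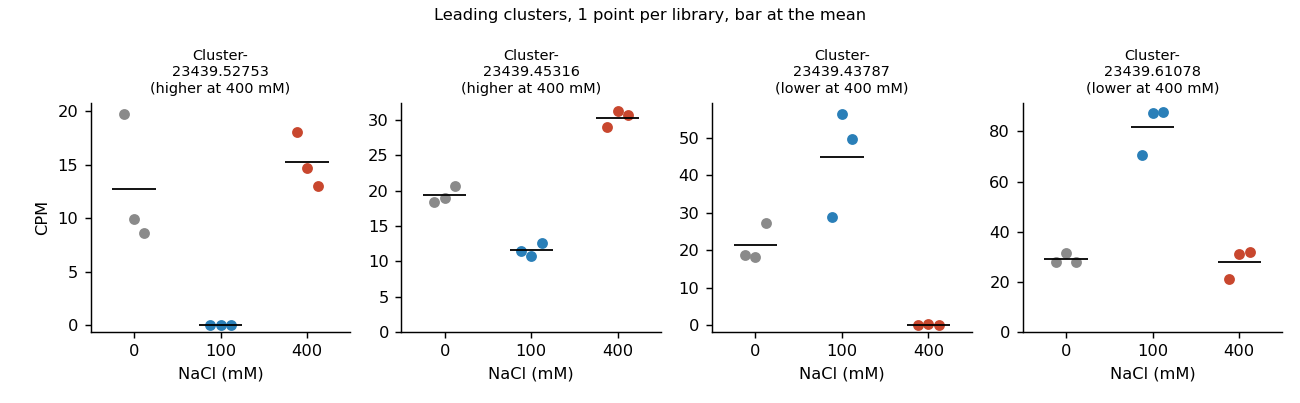
CPM of the 4 named clusters (vertical axes, linear) by NaCl level in mM (horizontal axes), 1 point per library with a bar at the mean of the 3. Cluster-23439.52753 has no counts at 100 mM, Cluster-23439.43787 has 10 counts in all at 400 mM, and the other pair differ by 2.62-fold and 2.93-fold with no overlap between 400 and 100 mM.

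The 20 leading clusters of each direction, the named ones among them, met the same conditions and were ranked by the same p. Both kinds were found among them, with other clusters in between. Of the 20 higher at 400 mM, 3 had no counts in any 100 mM library and were at least 284-fold to 375-fold higher, and 1 had 1 to 3 counts there. For the other 16, the fold between the means ran from 2.45 to 37.5 with a median of 2.95. Of the 20 lower at 400 mM, 2 had no counts in any 400 mM library and were at least 191-fold to 316-fold lower, and 1 had 1 to 3 counts there. The remaining 17 were 1.63-fold to 295-fold lower, with a median of 2.43-fold. A fold under 3 was found for 8 of the 20 higher and 10 of the 20 lower clusters. Adjusted p ran from 0.177 to 0.322 for the 20 higher and from 0.177 to 0.362 for the 20 lower with edgeR's quasi-likelihood test. DESeq2 called all 20 in each direction, beside 1.6% of all clusters to which it gave an adjusted p. The 20 were chosen by edgeR p and lack of overlap in the same counts, so these calls are no independent support. Limma on FPKM called 0 of the 14 higher and 0 of the 14 lower clusters that its table held.

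The 0 mM libraries had no part in the choice of these clusters, other than through the common estimate of spread. In the 20 clusters higher at 400 mM, the median of the cluster means was 28.2 CPM at 400 mM and 10.8 CPM at 100 mM. It was 24.4 CPM at 0 mM. The 0 mM mean was above the 100 mM mean in all 20, lay between both salt levels in 17 and was above both in 3. In the 20 clusters lower at 400 mM, the median was 13.6 CPM at 400 mM and 41.4 CPM at 100 mM. It was 21.6 CPM at 0 mM. The 0 mM mean was below the 100 mM mean in 16, lay between both salt levels in 11, below both in 5 and above both in 4. A further level also tends to lie between 2 levels that were chosen for being far apart, so these counts describe the clusters and support no direction.

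**Figure D3:**
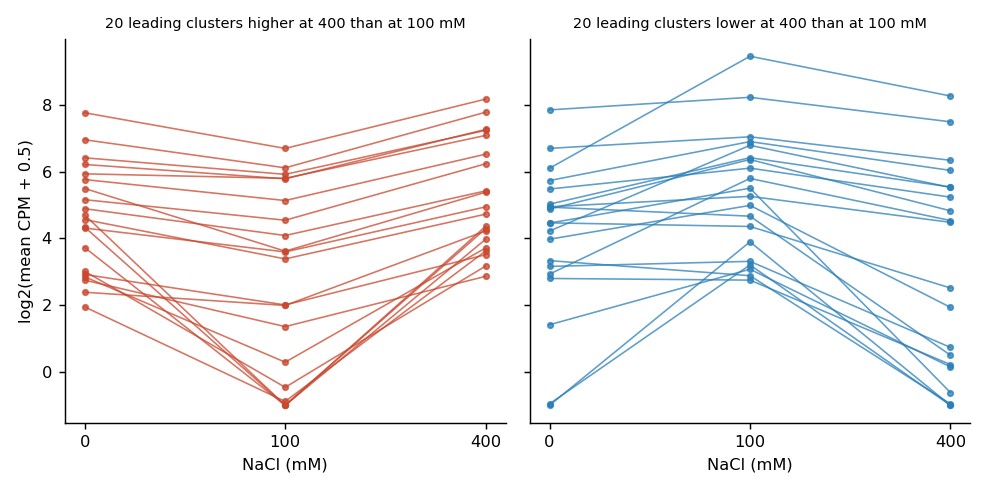
Level as log2(mean CPM + 0.5) (vertical axis) at 0, 100 and 400 mM NaCl (horizontal axis) of the 20 leading clusters higher (left) and the 20 lower (right) at 400 than at 100 mM, 1 line per cluster. On the left all 20 lines dip at 100 mM, and on the right 16 of 20 peak above their 0 mM level at 100 mM.

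With all 9 libraries, the share of higher clusters was smaller in the more abundant classes, an order that did not hold without replicate 2 of 400 mM. Classes were set by the mean CPM over the 6 salt libraries, so a cluster's own values help to place it. Among 1854 clusters over 100 CPM, 90 were higher at 400 mM (4.85%) and 197 lower (10.6%) at an unadjusted edgeR p under 0.05, beside 3.63% and 3.39% over all clusters. Between 10 and 100 CPM, 620 of 12344 were higher and 727 lower. Between 1 and 10 CPM, 807 of 24863 were higher and 672 lower, and under 1 CPM, 548 of 17771 were higher and 331 lower. The median log2 fold change was -0.10 over 100 CPM, -0.02 between 10 and 100 CPM, 0.04 between 1 and 10 CPM and 0.14 under 1 CPM. Higher clusters made up 31.4% of those at an unadjusted p under 0.05 over 100 CPM, with a range of 24.9% to 44.1% when each of the 9 libraries was left out. Under 1 CPM they made up 62.3%, with a range of 51.0% without replicate 2 of 400 mM to 79.3% without replicate 1 of 100 mM. Without replicate 2 of 400 mM the shares from scarce to abundant were 51.0%, 50.3%, 50.6% and 43.6% higher, close to even in 3 of the 4 classes. Between 10 and 100 CPM the direction turned to 588 higher and 575 lower without that library, and to 452 higher and 447 lower without replicate 2 of 100 mM. Between 1 and 10 CPM higher clusters made up 54.6%, against 67.0% without replicate 1 of 100 mM, and the direction turned to 706 higher and 723 lower without replicate 1 of 400 mM. Scaled by library size alone, clusters over 100 CPM divided evenly, into 153 higher and 151 lower, and those between 10 and 100 CPM turned to 886 higher and 521 lower. With the size factors of DESeq2 in edgeR, clusters over 100 CPM divided into 89 higher and 212 lower. Those between 10 and 100 CPM divided into 594 higher and 764 lower. The excess of lower clusters in these classes was thus found with TMM and with DESeq2's size factors, but not with library size alone. From scarce to abundant, library size alone gave 66.6%, 63.2%, 63.0% and 50.3% higher. This order was the same with TMM and with DESeq2's size factors over all libraries.

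**Figure D4:**
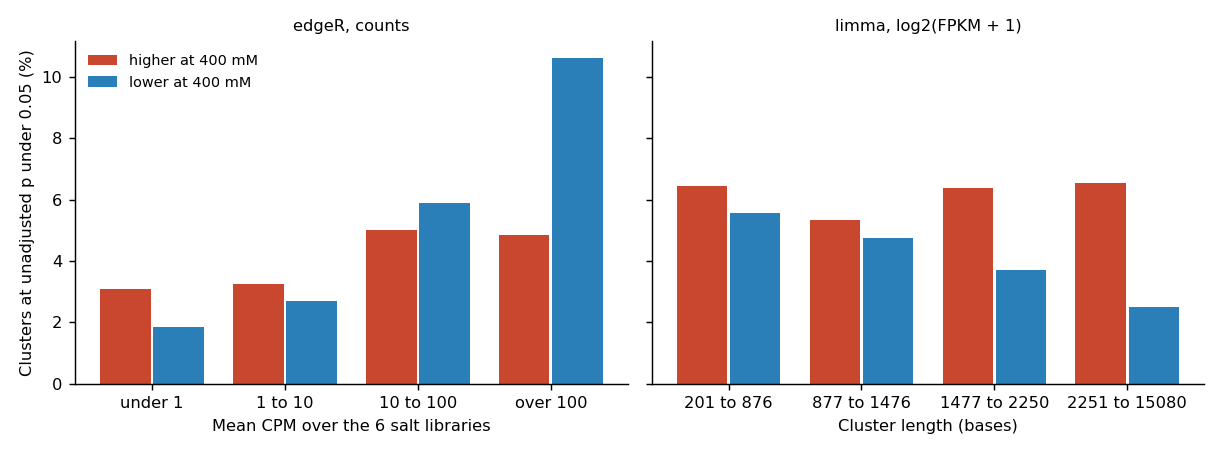
Percent of clusters at an unadjusted p under 0.05 (vertical axis, from 0) that were higher (red) or lower (blue) at 400 mM, by class of mean CPM with edgeR (left) and by class of cluster length with limma on log2(FPKM + 1) (right). With TMM scaling lower clusters exceed higher ones over 100 CPM, at 10.6% against 4.85%. This gap closes under library size scaling but not with DESeq2's size factors. On the right, lower clusters are fewest in the longest class, at 2.52%.

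The precision of the fold change differed between the classes. The median standard error of the log2 fold change, over clusters with counts at both levels, was 0.23, 0.26, 0.61 and 1.15 from the most abundant class to the scarcest. A scarce cluster therefore needs a larger fold to reach an unadjusted p under 0.05, and folds of clusters chosen by p are not compared between classes. Of the 2065 higher clusters, 341 had no counts at 100 mM, and of the 1927 lower ones, 248 had none at 400 mM. Without them, the median fold was 2.33 for the higher and 2.04 for the lower clusters.

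The 900 DESeq2 calls were mostly free of overlap. Of the 450 higher, 409 had 400 mM libraries that were all above the 100 mM libraries, and of the 450 lower, 412 were all below, beside 14.4% without overlap over all clusters tested. Overlap was judged on the same 6 salt libraries that the calls compare, so it is not independent support. The 0 mM libraries also entered the DESeq2 fit, through its scaling and spread. The higher clusters had a median of 7.51 CPM at 400 mM and 1.30 CPM at 100 mM. The lower clusters had a median of 4.99 CPM at 400 mM and 14.8 CPM at 100 mM. No counts were found at 100 mM in 132 of the 450 higher, and none at 400 mM in 97 of the 450 lower. The others had a median fold of 2.73 for the higher and 2.21 for the lower clusters. One library held over 90% of the higher level's CPM in 16 of the higher and 13 of the lower calls. Over all clusters tested this was so for 1942 of 56832, a similar share. Of the 900, 868 had an unadjusted edgeR p under 0.05. DESeq2 on all clusters with a count, an alternative added after seeing the data, gave 1363 calls, 664 higher and 699 lower.

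More clusters were present in every 400 mM library and absent from every 100 mM library than the reverse. Each of the 6 libraries was thinned at random to 18070003 counts. Then 945 of the 126059 clusters had a count in all 3 libraries at 400 mM and none at 100 mM. The reverse, a count in all 3 at 100 mM and none at 400 mM, held for 512 of the 126059. Replicates 2 and 3 of 100 mM had the fewest clusters with a count at equal depth, 78442 and 77735. The part of these libraries in the difference was not tested. No test was made of the 945 and 512, and they were not taken with a single library left out. Over 9 other draws they ran from 920 to 955 and from 505 to 532. At full depth they were 1032 and 454, and with at least 10 counts in each library of the higher level 90 and 52. Without replicate 1 of both levels, which asks for absence from fewer libraries, they were 4434 and 2284. Most were scarce, with a median of 0.147 CPM at 400 mM for the 945 and 0.160 CPM at 100 mM for the 512. A mean of at least 5 CPM was reached by 14 of the 945 and 12 of the 512. Of the 945, 297 had a count in every 0 mM library and 103 in none. Of the 512, 131 had a count in every 0 mM library and 69 in none. The 0 mM libraries were not thinned, and no such share was taken over other clusters of like abundance. These counts therefore describe the sets and show no gain or loss against 0 mM.

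Detection as a whole overlapped between the levels. At equal depth the 400 mM libraries had counts in 87081, 84632 and 82076 clusters, against 87674, 78442 and 77735 in the 100 mM libraries. Replicate 1 of 100 mM was the highest of the 6 and replicates 2 and 3 of 100 mM the lowest, so the levels overlapped. The mean was 84596 ± 2502 clusters at 400 mM, against 81284 ± 5546 clusters in 100 mM leaves (SD over 3 libraries). A two-sided exact permutation test gave p = 0.4, where 3 against 3 libraries cannot go below 0.1. Without replicate 1 of 100 mM the difference grew to 6508 clusters, and without replicate 1 of 400 mM it was 2071. The least number of clusters that together held 50% of a library's counts was 1501, 1639 and 1399 at 400 mM, against 1544, 1388 and 1270 at 100 mM. These values overlapped too (two-sided exact permutation p = 0.4). The 100 most abundant clusters took 17.9% ± 1.15 of the counts at 400 mM, against 18.2% ± 1.32 in 100 mM leaves (two-sided exact permutation p = 0.8), and the sign of this difference turned without replicate 2 of 400 mM or replicate 3 of 100 mM. Cluster names fall into components by their first number, and 1 component holds 78.2% of all names. Clusters outside it took 0.222% ± 0.0445 of the counts at 400 mM, against 0.235% ± 0.0902 in 100 mM leaves (SD over 3 libraries, two-sided exact permutation p = 0.9), and this sign turned without replicate 3 of 400 mM or replicate 1 of 100 mM. Over the 4 measures the Benjamini-Hochberg adjusted values were 0.8 to 0.9.

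**Figure D5:**
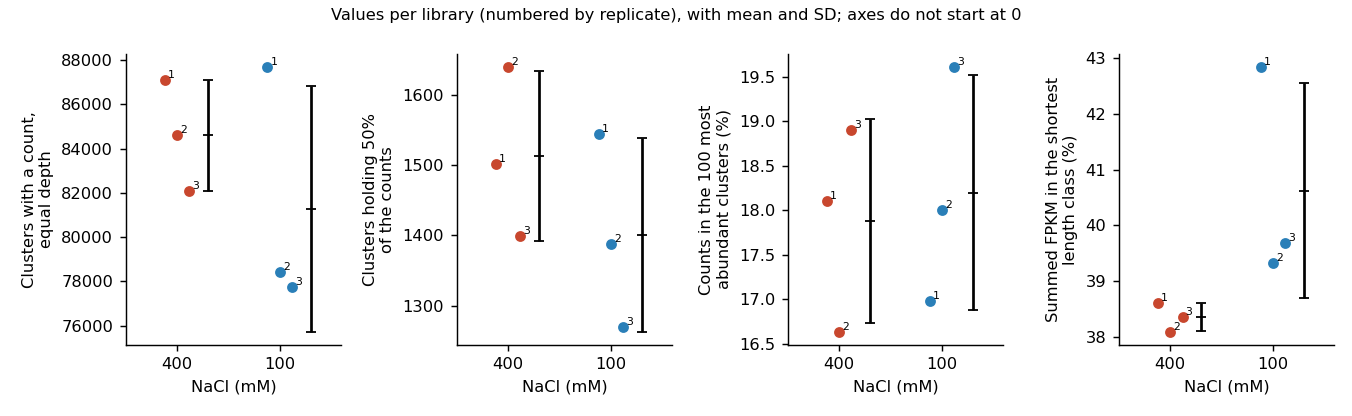
Values per library at 400 mM (left in each panel) and 100 mM (right), numbered by replicate, with mean and SD. From left to right: clusters with a count at equal depth, clusters holding 50% of the counts, percent of counts in the 100 most abundant clusters, and percent of the summed FPKM in the shortest length class; only the last has no overlap, 38.1% to 38.6% against 39.3% to 42.8%. The vertical axes do not start at 0.

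Few of the clusters that could be tested lay outside that largest component. Of 1187 such clusters, 17 were higher and 17 lower at an unadjusted edgeR p under 0.05 (2.86%), against 2048 higher and 1910 lower of 55645 inside the component (7.11%). Those outside were scarcer, with a median of 0.433 CPM against 2.35 CPM, so share and abundance moved together. The part of abundance in this difference was not tested. DESeq2 called 1 higher and 1 lower cluster outside the component.

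The FPKM scale gave the same count of calls. In the whole-series FPKM table, which holds 31628 clusters with their lengths, limma on log2(FPKM + 1) called 0 (0.0%) at an adjusted p under 0.05, and 3265 (10.3%) had an unadjusted p under 0.05, 1956 higher and 1309 lower. On all clusters with an FPKM in any library it called 18, 8 higher and 10 lower. The 95% interval of the difference stayed within 2-fold either way for 18787 clusters (59.4%), and reached past 4-fold for 1722. With pseudocounts of 0.1 and 0.01 in place of 1, it stayed within 2-fold for 12028 and 11319 clusters of the same 31628. The median half-width of the interval was 0.61 on the log2 scale. Between 20 and 100 FPKM, where the pseudocount of 1 matters little, the interval stayed within 2-fold for 3606 of 5633 clusters (64.0%). Over 100 FPKM it did so for 913 of 1554 (58.8%). Under 1 FPKM the share of 92.7% reflects the pseudocount, which compresses the change of low clusters. For the remaining clusters a change of 2-fold or more between 400 and 100 mM was within the interval.

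Higher clusters outnumbered lower ones most in the longest clusters. The 4 equal classes of the table by length ran from 201 to 876, 877 to 1476, 1477 to 2250 and 2251 to 15080 bases. In the longest class 518 clusters were higher and 199 lower at an unadjusted p under 0.05 with limma on log2(FPKM + 1), 72.2% higher, with a range of 60.4% to 76.1% when each of the 9 libraries was left out. The third class had 505 higher and 294 lower, the second 422 and 375, and the shortest 511 and 441. Without replicate 3 of 100 mM the second and the shortest class turned to 327 higher and 421 lower and to 432 higher and 489 lower, and the third came to 373 and 333. Without replicate 1 of 100 mM the shortest class had 550 higher and 310 lower. With edgeR on the counts, 419 were higher and 252 lower in the longest class, 353 and 356 in the third, 265 and 450 in the second, and 198 and 322 in the shortest. With TMM in edgeR, the excess of higher clusters was thus found on both scales in the longest class alone. The other 3 classes had more lower than higher clusters with edgeR, by little in the third. FPKM is scaled by library size without TMM factors. The edgeR counts by length were not taken with another scaling or with a library left out. The median difference of the longest class was 0.09 on the log2(FPKM + 1) scale, small beside the median half-width of a single cluster.

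In sums, the shortest class held 38.6%, 38.1% and 38.4% of the table's FPKM at 400 mM, against 42.8%, 39.3% and 39.7% at 100 mM. The 400 mM libraries were all below the 100 mM libraries, and replicate 1 of 100 mM was far above the rest. The mean was 38.4% ± 0.254 at 400 mM, against 40.6% ± 1.93 in 100 mM leaves (SD over 3 libraries), a difference of -2.27 percentage points. A two-sided exact permutation test gave p = 0.1, the smallest possible, and 0.2 after adjustment over the 4 classes. Without replicate 1 of 100 mM the difference was -1.16 percentage points, and without the 100 most abundant clusters -1.61. The longest class held 10.0% ± 0.58 at 400 mM, against 9.25% ± 0.50 in 100 mM leaves, with overlap (two-sided exact permutation p = 0.3). Its difference of 0.77 points ran from 0.48 to 1.06 with a salt library left out. A sum of FPKM is carried by abundant clusters, whereas the counts by direction weigh all clusters alike.

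Libraries of a level varied among themselves to a similar degree. The median over clusters of the SD of log2(CPM + 0.5) was 0.445 at 400 mM and 0.439 at 100 mM, and the SD was larger at 400 mM for 28531 clusters and at 100 mM for 28287. Over 100 CPM the medians were 0.281 at 400 mM and 0.258 at 100 mM. Without replicate 1 of 100 mM the 100 mM median was 0.295, and without replicate 1 of 400 mM the 400 mM median was 0.313. Leaving out any library lowers the median of its level, since an SD of 2 values has a lower median than an SD of 3.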

How the data were processed

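Counts per cluster and FPKM of 9 leaf libraries were used. The deposited read counts are estimated counts, since 38.5% to 42.5% of values per library are not whole; they were rounded. The deposited FPKM were the authors' own values, as the file headers name them, and the whole-series FPKM table repeats them exactly for 31628 clusters. The submitters' processing notes list TopHat2 2.0.9 beside Bowtie2 2.0.6 and do not say what each did. For the assembler, counting tool and strand setting, the name is not given in the sources used here. Reads of near-identical clusters could be divided by the counting, so single clusters are uncertain as genes.

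Clusters were tested with edgeR 4.0.16 by quasi-likelihood (R 4.3.3; TMM, filterByExpr, all 9 libraries in 3 groups, 6 residual degrees of freedom), with Benjamini-Hochberg adjustment over 56832 clusters and a threshold of 0.05. Standard errors are the log2 fold change over the square root of F. DESeq2 1.42.0 and limma 3.58.1 (also voom) were alternatives, with limma on log2(FPKM + 1) as the second scale. Single values per library were compared by exact permutation tests (SciPy 1.17.1). The edgeR fit and the limma fit on the FPKM scale were run on simulated data with known changes. The DESeq2 and voom fits were not. Simulated data follow the assumed models, so they cannot show the error rate in these libraries. Scaling, filters, pseudocounts, a replicate block and each library left out were tried as alternatives, with some added after seeing the data, among them values by abundance and length class and DESeq2 on all clusters. Named clusters had at least 5 CPM in the higher level, no overlap between levels and the smallest edgeR p, 2 per direction because no gene names were paired. Cluster lists and comparisons were chosen with earlier results of these data known. Lists by pathway and cell type could not be applied.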

Additional observations from a re-analysis of the deposited data

How the results depend on the processing

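The count of 0 clusters called with edgeR's quasi-likelihood test was 900 with DESeq2, 1363 with DESeq2 on all clusters with a count (added after seeing the data) and 1 with the newer adjusted deviances. It was 0 in the other alternatives run, among them each library left out (0 to 0) and the replicate number as a block (0, with 3975 clusters at an unadjusted p under 0.05). Deviations of same-numbered libraries at 400 and 100 mM from their level means correlated at 0.216, 0.041 and 0.073. Replicate 1 of 400 mM correlated most with its own number, against -0.106 and -0.130 with replicates 2 and 3 of 100 mM. Replicates 2 and 3 of 400 mM correlated most with another number at 100 mM, at 0.066 and 0.074. Deviations within a level offset each other, so these values are not independent. Whether the numbers pair the libraries was not tested. Clusters at an unadjusted p under 0.05 were 6051 with no filter and 3255 to 4223 with a library left out, beside 3992. The median log2 fold change of 0.033 was 0.093 with library size only, 0.0080 with no filter, 0.017 at a mean of at least 1 CPM, 0.045 without replicate 1 of both salt levels and 0 to 0.077 with a library left out. Clusters present at 400 mM alone and at 100 mM alone, 945 and 512, were 90 and 52 with at least 10 counts, and 4434 and 2284 without replicate 1 of both levels. The difference in the share of the 100 most abundant clusters, -0.32 percentage points, turned to 0.019 for the 10 most abundant and ran from -0.92 to 0.39 with a library left out. The difference in the share outside the largest component, -0.013 points, ran from -0.047 to 0.038, and that in clusters detected from 1538 to 6508. The difference in median spread, 0.0063, was 0.00071 and 0.0040 with pseudocounts of 0.1 and 5 CPM, 0.015 over 10 CPM and -0.13 to 0.15 with a library left out, where a level of 2 libraries has a lower SD by construction. On the FPKM scale 0 calls became 18 over all clusters of the library files and stayed 0 to 0 with a library left out. Clusters whose interval stayed within 2-fold, 18787, were 12028 and 11319 with pseudocounts of 0.1 and 0.01, 78133 over all clusters, 10010 at a mean FPKM of at least 5 and 15379 to 18894 with a library left out. The median difference of the shortest length class, 0.0075, ran from -0.024 to 0.067. By fitted fold change, the 4 named clusters kept their direction in each of 19 alternatives. They were chosen for no overlap in these same libraries, so this was nearly fixed by the choice and is no independent support. With 3 libraries a level and 18070003 counts or more each, the median standard error of a log2 fold change was 1.15 under 1 CPM and 0.23 over 100 CPM. The parts of depth and of spread among libraries in this difference were not tested.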

Other observations

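Some clusters with large fitted differences were carried by 1 or 2 libraries. By a rule set after the values were seen, 12 clusters had a mean over 20 CPM in the salt libraries, a fitted log2 fold change past 3 either way and an unadjusted edgeR p under 0.05. The levels did not overlap in 6 of them, and in 3 of them 1 library held over 90% of the higher level's CPM. DESeq2 called 8 of the 12 and gave no adjusted p to 3. The most extreme of those lower at 400 mM had 0.134, 0.698 and 0 CPM at 400 mM, against 2707, 1277 and 0.126 CPM at 100 mM, so that replicate 3 of 100 mM stood with the 400 mM libraries. Its level at 0 mM was 0.266, 0.242 and 0.344 CPM. Another had 1102, 0.140 and 0.230 CPM at 400 mM, against 0, 0 and 0.253 CPM at 100 mM. The same cluster stood at 0, 0.970 and 983 CPM in the 0 mM libraries, so that 1 library at 400 mM and 1 at 0 mM held nearly all of it. The adjusted p of both with edgeR's quasi-likelihood test, 0.519 and 0.704, did not pass. DESeq2 called the lower one at an adjusted p of 2.24e-06, though its levels overlapped, and gave no adjusted p to the other.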
